A study of Mus musculus with 6 samples.

Results

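The genes Dcc, Neo1, Unc5a, Unc5b, Unc5c and Unc5d, which encode receptors for the axon guidance cue netrin, were examined for binding by the neuronal splicing regulators NOVA1 and NOVA2. The genes were picked by name, as the receptors of this family, with earlier results of these data known. A cluster, a stretch of overlapping sequence tags on the same strand, belonged to a gene when it overlapped the annotated span of that gene by at least 1 nt on its strand. By this rule 35 of 9988 NOVA1 clusters and 186 of 36591 NOVA2 clusters lay in the 6 genes, and 5 of the genes held a cluster. Binding had been mapped by HITS-CLIP, a method that fixes proteins to RNA with ultraviolet light, pulls down the protein of interest and reads the RNA fragments bound to it. The tissue was cortex of wild-type CD1 mouse embryos at embryonic day 18.5, with 3 libraries for NOVA1 and 3 for NOVA2. Both groups shared strain, tissue and stage, and differed in the protein that was precipitated. The tags of the 3 libraries of a protein had been pooled in 1 list of clusters with at least 10 tags. No spread between libraries could therefore be computed, and no test was possible. The 95% intervals below cover counting error only for shares, ratios and folds, and the spread between positions for medians. They treat clusters, positions and motif copies as independent, which those of the same gene or repeat need not be. The tag count of a cluster was not scaled to library size, and the study reports more unique tags for NOVA2 than for NOVA1. Equal tag counts therefore do not mean equal binding. The study names the count of a cluster peak height, without stating if this is the sum of its tags or the greatest depth. The intervals of tag ratios treat it as a number of tags.

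Netrins are secreted proteins that steer growing axons. DCC and its relative neogenin (NEO1) are transmembrane receptors with immunoglobulin and fibronectin type III domains outside the cell, and DCC mediates attraction to netrin-1. NEO1 also binds repulsive guidance molecules. The UNC5 receptors mediate repulsion from netrin, alone or together with DCC, through a cytoplasmic part that ends in a death domain. NOVA proteins bind the RNA motif YCAY, in which Y is a pyrimidine, and binding in or near an alternative exon can raise or lower its inclusion depending on position. In DCC, alternative splicing of exon 17 changes the length of a linker between fibronectin type III domains. In NEO1, an alternative exon lengthens the intracellular part. Each of these events was examined by the study.

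The following clusters carry the description of Neo1 and of the UNC5 genes. They are printed 5′ to 3′ on the transcript strand in DNA letters from the mouse genome NCBIM37, which is mm9. Capitals mark YCAY, with either pyrimidine, C or T, at each end of CA, and overlapping copies were counted separately. The Neo1 exon 26 cluster, of NOVA2 with 64 tags, lay at chr9:58732275-58732483 on the minus strand. It began 48 nt before the 159-nt exon, covered it whole and ended 2 nt after it. The Neo1 clusters of introns 2 and 5, with 71 and 60 NOVA2 tags, lay at chr9:58834410-58834576 and chr9:58826253-58826314. On the plus strand, the Unc5a cluster of intron 1 with 16 NOVA2 tags lay at chr13:55062758-55062866. Both Unc5c clusters were on the plus strand, in intron 1 with 65 NOVA2 tags at chr3:141188819-141189007 and in intron 2 with 33 NOVA2 tags at chr3:141343597-141343717. Both Unc5d clusters were on the minus strand, in intron 1 with 143 NOVA2 tags at chr8:30201993-30202163 and in intron 15 with 38 NOVA2 tags at chr8:29785986-29786129. The clusters of Neo1 intron 5 and Unc5d intron 15 are shown for their distance from an exon, and that of Unc5c intron 2 for its number of YCAY. These 3 were chosen after their values were seen, and the others as the intron or coding cluster of highest tag count in their gene or for the alternative exon.
Neo1 exon 26: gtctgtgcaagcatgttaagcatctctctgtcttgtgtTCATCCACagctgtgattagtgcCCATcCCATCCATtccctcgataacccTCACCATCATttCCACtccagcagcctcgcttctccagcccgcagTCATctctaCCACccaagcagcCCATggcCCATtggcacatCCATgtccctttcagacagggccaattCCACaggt
Neo1 intron 2: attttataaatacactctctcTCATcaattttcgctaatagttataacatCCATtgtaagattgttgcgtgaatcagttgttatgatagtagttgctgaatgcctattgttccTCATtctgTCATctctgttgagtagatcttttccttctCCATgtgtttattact
Neo1 intron 5: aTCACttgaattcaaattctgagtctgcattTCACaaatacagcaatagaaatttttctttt
Unc5a intron 1: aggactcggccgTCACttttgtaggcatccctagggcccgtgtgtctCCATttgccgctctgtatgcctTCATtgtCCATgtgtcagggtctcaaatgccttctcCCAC
Unc5c intron 1: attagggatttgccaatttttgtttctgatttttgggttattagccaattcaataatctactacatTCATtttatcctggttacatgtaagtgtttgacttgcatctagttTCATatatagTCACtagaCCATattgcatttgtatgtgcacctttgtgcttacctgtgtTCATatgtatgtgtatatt
Unc5c intron 2: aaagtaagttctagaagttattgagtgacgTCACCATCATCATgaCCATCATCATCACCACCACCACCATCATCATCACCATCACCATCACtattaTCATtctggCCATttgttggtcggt
Unc5d intron 1: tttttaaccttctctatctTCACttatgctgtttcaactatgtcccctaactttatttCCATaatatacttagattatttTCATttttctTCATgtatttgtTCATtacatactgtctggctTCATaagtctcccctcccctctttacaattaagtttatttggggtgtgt
Unc5d intron 15: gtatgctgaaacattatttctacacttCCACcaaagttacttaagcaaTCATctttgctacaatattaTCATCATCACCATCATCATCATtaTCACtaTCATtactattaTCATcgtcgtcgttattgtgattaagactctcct

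The Neo1 exon 26 cluster held 15 copies of YCAY, spread over the exon and the 3′ splice site. The exon itself held 13 copies, or 83.3 per 1000 start positions, the most of the 29 exons of the reference transcript, against 18.8 per 1000 over all 29. The Unc5c intron 2 cluster held 21 copies in 121 nt, and the Unc5d intron 15 cluster 12 copies in 144 nt. In both of these the copies largely ran on from each other in a repeat of CAT and CAC, as the letters show. The clusters of highest tag count in introns 1 were less dense, with 5 copies in Unc5c and 6 in Unc5d.

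The number of clusters differed widely among the receptors. Dcc held 17 NOVA1 and 85 NOVA2 clusters, with 304 and 2376 tags. Unc5d held 10 and 60 clusters, with 131 and 1583 tags. Neo1 held 6 and 16 clusters, with 144 and 461 tags. In Unc5c there were 1 NOVA1 cluster of 13 tags and 23 NOVA2 clusters with 450 tags, and in Unc5a 1 NOVA1 cluster of 27 tags and 2 NOVA2 clusters with 58 tags. Unc5b held no cluster of either list. A gene with at least 1 cluster made up 12.7% of the 22380 protein-coding genes for NOVA1 and 22.7% for NOVA2. No cluster lay on the opposite strand of any of the 6 genes.

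**Figure D1:**
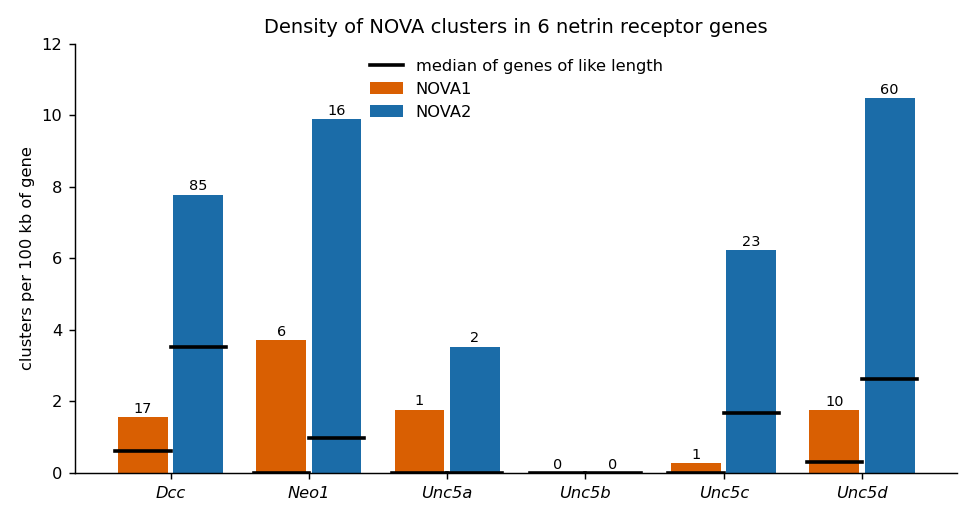
Clusters per 100 kb of gene (vertical axis) of NOVA1 (orange) and NOVA2 (blue) in the 6 genes, with the number of clusters above each bar and, as a black line, the median of protein-coding genes of 0.5 to 2 times the length. The NOVA2 density was highest in Unc5d and Neo1, and Unc5b was at 0.

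Because long genes offer more room, clusters were also set against gene length. The NOVA2 density was 10.5 clusters per 100 kb in Unc5d, 9.89 in Neo1, 7.78 in Dcc, 6.23 in Unc5c and 3.53 in Unc5a. Among protein-coding genes of 0.5 to 2 times the length, the median density was 2.62 for Unc5d (535 genes), 0.965 for Neo1 (2554 genes), 3.52 for Dcc (162 genes) and 1.67 for Unc5c (961 genes). Thus each of these 4 genes lay above the median of its length class, and by NOVA2 clusters per 100 kb they ranked 62, 171, 45 and 185 in it. In the length class of Unc5b, 44.5% of 5048 genes held a NOVA2 cluster, and in that of Unc5a 40.4% of 5667 genes did. For NOVA1 the order was different, with 3.71 clusters per 100 kb in Neo1, 1.77 in Unc5a, 1.75 in Unc5d, 1.56 in Dcc and 0.271 in Unc5c. The amount of each transcript was not measured here, so a gene with few clusters cannot be told from a gene with little RNA, and less RNA per cell cannot be told apart from fewer cells that express the gene. When the NOVA2 list was reduced to as many clusters as the NOVA1 list by tag count, 47 NOVA2 clusters were left in the 6 genes, of which 22 lay in Dcc, 16 in Unc5d, 4 in Neo1 and 4 in Unc5c.

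**Figure D2:**
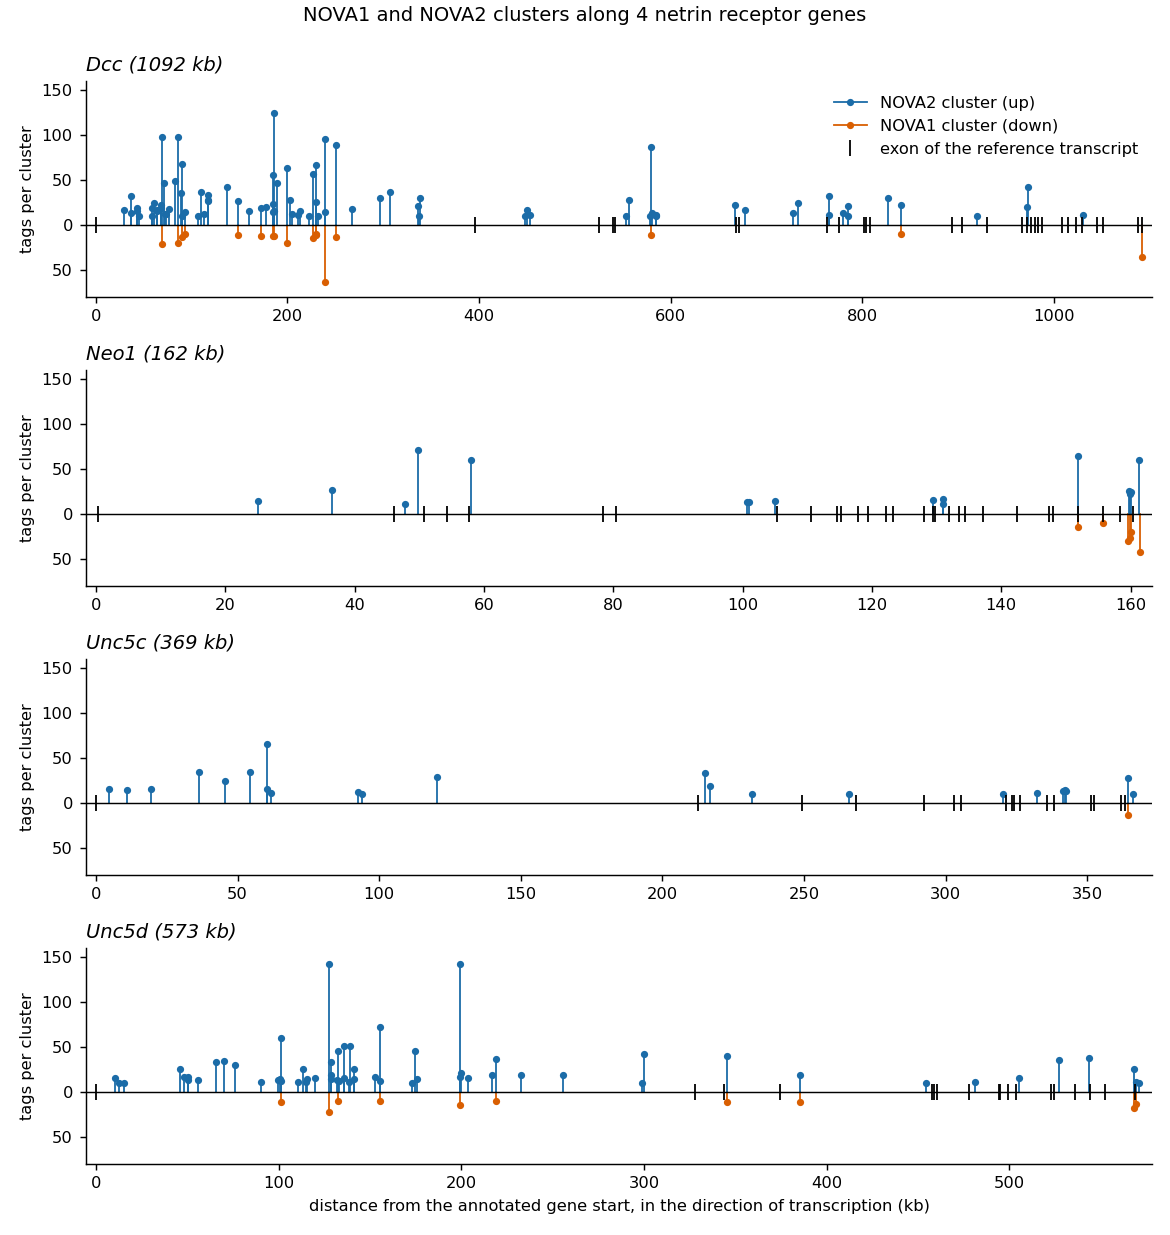
Position of each cluster in Dcc, Neo1, Unc5c and Unc5d (horizontal axis, kb from the annotated gene start in the direction of transcription) and its tag count (vertical axis), with NOVA2 clusters drawn upward in blue, NOVA1 clusters downward in orange and exons as black ticks. In Dcc, 60 of 85 NOVA2 and 14 of 17 NOVA1 clusters lay in intron 1, whereas the NOVA1 clusters of Neo1 lay at the 3′ end.

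Dcc spans 1092 kb at chr18:71418392-72510723 on the minus strand (ENSMUSG00000060534.9) and has 29 exons in the reference transcript. Each of its 85 NOVA2 clusters was intronic, and 60 of them (70.6%, 60.2 to 79.2) lay in intron 1, which measures 395 kb and makes up 36.4% of the intron sequence. Of the 16 NOVA1 intron clusters, 14 (87.5%, 64.0 to 96.5) lay there. The density in intron 1 was 15.2 NOVA2 clusters per 100 kb, against 3.61 in the other introns together, and 3.54 against 0.289 for NOVA1. In protein-coding genes of at least 100 kb, 30.2% of 19520 NOVA2 intron clusters and 33.9% of 2951 NOVA1 intron clusters lay in the first intron, which held 24.8% and 27.0% of the intron sequence of the genes with clusters. When Dcc was divided in 5 equal parts from its start, they held 46, 14, 10, 11 and 4 NOVA2 clusters and 9, 5, 1, 1 and 1 NOVA1 clusters. The first part held the most clusters of each protein. Over the genes of at least 100 kb the corresponding shares of NOVA2 intron clusters were 24.2, 23.0, 20.6, 17.3 and 14.8%.

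In Dcc the strongest NOVA2 clusters lay in intron 1, between 68.6 and 251 kb from the gene start. Their tag counts were 124, 98, 98, 96 and 89. They lay at chr18:72324637-72324963, chr18:72425117-72425288, chr18:72442074-72442185, chr18:72271828-72272121 and chr18:72260111-72260236. All 5 were shared with NOVA1, whose clusters there had 12, 20, 21, 64 and 14 tags in the same order. The NOVA1 cluster of 64 tags at chr18:72271886-72272103 was the highest of that protein in the gene and held 16 copies of YCAY in 218 nt. Apart from it and a cluster at the gene end, the strongest NOVA1 clusters had 21, 20 and 20 tags and also lay in intron 1. At the position of 64 NOVA1 tags, NOVA2 had 1.5 tags per NOVA1 tag (1.08 to 2.09), the lowest ratio among the 5. At the cluster of 124 NOVA2 tags the ratio was 10.3 (5.71 to 20.5), the highest among the 5, with an interval that did not overlap the lowest. The 5 were picked for their NOVA2 tags, and the intervals make no allowance for comparing the extremes. At the cluster of 124 NOVA2 tags the NOVA2 and NOVA1 clusters measured 327 and 67 nt, against 294 and 218 nt at the position of 64 NOVA1 tags. What part of the difference in ratio came from cluster width was not tested. The strongest NOVA2 cluster outside intron 1 had 87 tags, lay in intron 5 at chr18:71931368-71931577 and overlapped a NOVA1 cluster of 11 tags.

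Clusters were absent from long stretches of Dcc. The widest gap measured 109 kb, from 339 to 448 kb after the gene start, and ran from the end of intron 1 into intron 2. The next measured 101 kb over introns 2 to 5 and 81.4 kb in intron 5. Only 11 of 28 introns held a NOVA2 cluster and 3 a NOVA1 cluster, and the shortest of these measured 4.04 kb and 85.2 kb. Within the occupied stretches clusters lay close together, since 41 of 85 NOVA2 clusters had a neighbour of the same list within 1 kb and the median gap was 3.21 kb.

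The 3′ end of Dcc was bound outside this intronic pattern. A NOVA1 cluster of 36 tags at chr18:71418142-71418435 straddled the annotated end of the gene, with most of its nucleotides beyond it. It held 12 copies of YCAY and overlapped a NOVA2 cluster of 21 tags that began 51 nt past the annotated end and so fell outside the rule. NOVA1 tags outnumbered NOVA2 tags there, with 0.583 NOVA2 tags per NOVA1 tag (0.324 to 1.03), and this was the only one of the 17 shared positions of Dcc at which they did.

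Exon 17 of Dcc is annotated with a choice of 3′ splice sites, which give exons of 233 and 173 nt that differ by 60 nt or 20 codons. A NOVA2 cluster of 20 tags with 3 copies of YCAY lay in intron 16 at chr18:71538584-71538646. Its end was 42 nt upstream of the longer form of the exon and 102 nt upstream of the shorter form. A second NOVA2 cluster, of 42 tags with 6 copies, lay in intron 17 at chr18:71537641-71537761, 547 nt downstream of the exon. No NOVA1 cluster lay in either intron, and the nearest was 119.9 kb away at the end of the gene. Over all transcripts, 10.3% of 7115 NOVA2 intron clusters with 20 to 39 tags and 35.5% of 3317 with 40 to 79 tags overlapped a NOVA1 cluster. A missing NOVA1 cluster at such tag counts was thus the more frequent case, and a NOVA1 site of fewer than 10 tags could not have been seen.

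**Figure D3:**
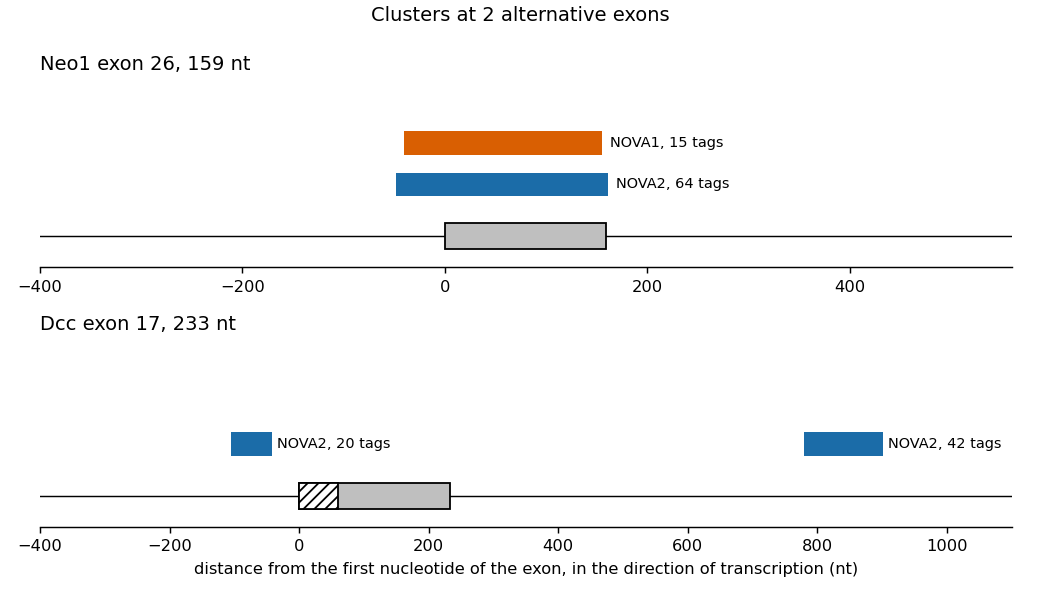
Clusters around Neo1 exon 26 and Dcc exon 17, by distance from the first nucleotide of the exon in the direction of transcription (horizontal axis, nt), with NOVA1 in orange, NOVA2 in blue and the exon in grey; the hatched part of Dcc exon 17 is the 60 nt present only in the longer form. Both proteins covered the Neo1 exon, whereas NOVA2 clusters alone lay beside the Dcc exon.

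Neo1 spans 162 kb at chr9:58722486-58884248 on the minus strand (ENSMUSG00000032340.6). Its alternative exon of 159 nt, or 53 codons, is exon 26 of 29 in the reference transcript and is skipped in 1 of 3 annotated coding transcripts. It lay at chr9:58732277-58732435, inside the NOVA2 cluster printed above. A NOVA1 cluster of 15 tags at chr9:58732281-58732475 covered 155 nt of the exon and the 40 nt before it, with 14 copies of YCAY. Both proteins thus occupied the same exon and the adjoining 3′ splice site, with 64 NOVA2 and 15 NOVA1 tags. The ratio was 4.27 NOVA2 tags per NOVA1 tag (2.40 to 8.06). Over the whole lists the median ratio was 1.08 at 285 shared positions in coding sequence and 4.10 at 3452 in introns. The other alternative exon of Neo1, of 33 nt, had its nearest cluster 3.23 kb upstream, of NOVA2 with 17 tags.

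The remaining exonic clusters of Neo1 were weaker or lay in the 3′ UTR. Exon 27 of the reference transcript is not the alternative exon described above, to which the study's discussion gives that number. In coding sequence, exon 27 of the reference transcript held a NOVA1 cluster of 10 tags at chr9:58728426-58728664, with 6 copies of YCAY and no NOVA2 cluster. It was the only NOVA1 cluster of the 35 without a NOVA2 partner, and its count is the lowest that a list can hold. Exon 17 held a NOVA2 cluster of 15 tags at chr9:58754768-58754931 without a NOVA1 partner. In the 3′ UTR, both lists held 4 clusters at the same positions, with 30, 27, 20 and 42 NOVA1 tags and 25, 22, 24 and 60 NOVA2 tags. The ratios of 0.833, 0.815, 1.20 and 1.43 NOVA2 tags per NOVA1 tag had intervals that included 1. Counts were unscaled, so a ratio of 1 does not mean equal binding. At 2146 shared 3′ UTR positions of the whole lists the median ratio was 1.32. No NOVA1 cluster lay in an intron of Neo1, whereas 10 of its 16 NOVA2 clusters did.

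Of these intron clusters of Neo1, 2 lay within 500 nt of an exon. The first, with 60 tags, was 117 nt downstream of exon 5 and held 2 copies of YCAY. The second, with 14 tags at chr9:58779158-58779343, was 175 nt upstream of exon 8 and held 4 copies. The strongest intron cluster, with 71 tags, lay 726 nt upstream of exon 3. None of these exons is annotated as alternative. Only 2 of the 10 intron clusters lay in intron 1, which holds 29.4% of the intron sequence, and only 1 was more than 10 kb from an exon. In this Neo1 differed from Dcc, where 88.2% of the NOVA2 intron clusters were that far from an exon. Intron length bounds such distances. The longest intron measured 45.5 kb in Neo1 and 395 kb in Dcc, and the median intron 2.72 and 9.37 kb.

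Unc5d spans 573 kb at chr8:29757189-30329810 on the minus strand (ENSMUSG00000063626.4). As in Dcc, its NOVA2 clusters were mostly intronic, 57 of 60, and 50 of these 57 (87.7%, 76.8 to 93.9) lay in intron 1, which measures 328 kb and makes up 58.1% of the intron sequence. The density was 15.3 NOVA2 clusters per 100 kb in intron 1 and 2.97 in the other introns. The strongest NOVA2 clusters had 143, 142 and 72 tags and lay in intron 1, 128, 199 and 156 kb after the gene start, at chr8:30201993-30202163, chr8:30130438-30130572 and chr8:30174017-30174320. Each had a NOVA1 partner, with 22, 15 and 10 tags. These gave 6.50 (4.13 to 10.7), 9.47 (5.55 to 17.4) and 7.20 (3.70 to 15.7) NOVA2 tags per NOVA1 tag. The strongest NOVA1 clusters were those of 22 tags and 15 tags and, in the 3′ UTR at chr8:29761694-29761850, of 18 tags. The 3′ UTR held 3 NOVA2 clusters, of 25, 11 and 10 tags, and the first and second overlapped NOVA1 clusters of 18 and 13 tags. These gave 1.39 and 0.846 NOVA2 tags per NOVA1 tag in unscaled counts, with intervals that included 1 (0.728 to 2.70 and 0.343 to 2.05).

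Close to an exon, Unc5d held a single cluster, of NOVA2 with 38 tags in intron 15, which ended 74 nt upstream of exon 16. Its repeat of YCAY is printed above. Exon 16 is not annotated as alternative. The 4 alternative exons of Unc5d, numbered 6, 8, 9 and 10, had no cluster of either list within 3 kb, the nearest being a NOVA2 cluster of 11 tags 3.45 kb from the 33-nt exon 8.

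Unc5c spans 369 kb at chr3:141128528-141497888 on the plus strand (ENSMUSG00000059921.9), and NOVA2 clusters outnumbered NOVA1 clusters in it 23 to 1. Of the NOVA2 clusters 21 were intronic, and 12 of these (57.1%, 36.5 to 75.5) lay in intron 1, which makes up 58.9% of the intron sequence. Unlike in Dcc and Unc5d, the density in intron 1, 5.66 per 100 kb, was near that of the other introns, 6.09. The strongest NOVA2 clusters had 65, 34 and 34 tags and lay in intron 1, and none of the 21 intron clusters overlapped a NOVA1 cluster. Over all transcripts 35.5% of NOVA2 intron clusters with 40 to 79 tags did, and Unc5c held 1 cluster in that range. The only NOVA1 cluster, of 13 tags at chr3:141492853-141492991, lay in the 3′ UTR and overlapped a NOVA2 cluster of 28 tags. A further NOVA2 cluster of the 3′ UTR had 10 tags. The 57-nt alternative exon 8 had a NOVA2 cluster of 10 tags 792 nt upstream, at chr3:141448907-141449028. The repeat-rich cluster of 33 tags lay 2.42 kb downstream of exon 2, which is absent from 1 of 3 annotated coding transcripts.

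Unc5a and Unc5b were the shortest of the 6 genes, at 56.6 and 69.0 kb. Unc5a (chr13:55050772-55107379, plus strand, ENSMUSG00000025876.9) was bound by both proteins in its 3′ UTR, with 42 NOVA2 tags at chr13:55106862-55107013 and 27 NOVA1 tags at chr13:55106868-55107034. These overlapping clusters held 11 and 10 copies of YCAY, or 73.8 and 61.0 per 1000 start positions, and the NOVA2 cluster was the densest 3′ UTR cluster of the 6 genes. The ratio was 1.56 NOVA2 tags per NOVA1 tag (0.937 to 2.62). The other NOVA2 cluster, of 16 tags in intron 1, is printed above. Its alternative exons 6 and 7 were more than 7 kb from any cluster. Unc5b (chr10:60225358-60294329, minus strand, ENSMUSG00000020099.6) held none.

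Taking the 6 genes together, 34 of 35 NOVA1 clusters (97.1%, 85.5 to 99.5) shared at least 1 nt with a NOVA2 cluster of their strand, against 80.1% of all NOVA1 clusters. Of the NOVA2 clusters 33 of 186 did (17.7%, 12.9 to 23.9), against 22.1% of all. In introns, 24 of 24 NOVA1 clusters of these genes had a NOVA2 partner, against 95.5% of all 4022 NOVA1 intron clusters. Of the NOVA2 intron clusters 24 of 174 (13.8%, 9.45 to 19.7) had a NOVA1 partner, against 14.1% of all. The receptor genes were thus near the whole lists in both. With only as many NOVA2 clusters as NOVA1 clusters kept, those of highest tag count, the shares were 60% of 35 and 44.7% of 47. Overlap was more frequent at higher NOVA2 tag counts. It was found for 3 of 103 NOVA2 intron clusters with 10 to 19 tags, 4 of 42 with 20 to 39, 9 of 21 with 40 to 79 and 8 of 8 with 80 or more. The corresponding shares over all transcripts were 2.25, 10.3, 35.5 and 78.0%. All 8 clusters with 80 or more tags lay in Dcc and Unc5d.

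**Figure D4:**
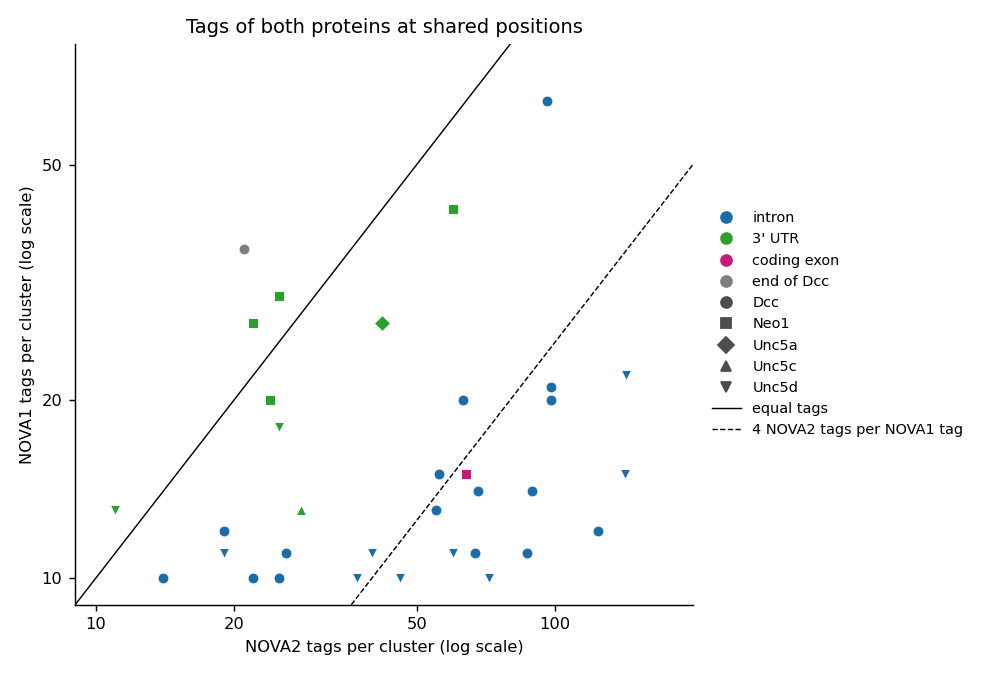
NOVA1 tags (vertical axis) against NOVA2 tags (horizontal axis), both on log scales, at the 34 positions where a cluster of each list overlapped 1 to 1; colour gives the part of the gene, symbol the gene, the solid line equal tags and the dashed line 4 NOVA2 tags per NOVA1 tag. All 24 intron positions lie below the line of equal tags, and the 8 positions in 3′ UTRs lie near it.

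The ratio of NOVA1 to NOVA2 tags at shared positions differed between introns and 3′ UTRs. At the 24 intron positions of the 6 genes NOVA1 tags over NOVA2 tags gave a median of -2.14 on the log2 scale (-2.61 to -1.32), and NOVA2 had more tags at each of them. At the 8 positions in 3′ UTRs it was -0.37 (-1.11 to 0.30), and NOVA2 had more tags at 5. The intervals of the medians did not overlap, but they describe positions in a few genes, which are not replicates. Over all transcripts the medians were -2.04 at 3452 intron positions and -0.40 at 2146 positions in 3′ UTRs, so the receptor genes were close to the whole lists in both. The intron positions lay in Dcc (16) and Unc5d (8), and those in 3′ UTRs in Neo1 (4), Unc5d (2), Unc5a (1) and Unc5c (1). Only Unc5d had both, with medians of -2.32 and -0.12, so in the 6 genes the part of a gene and the gene can largely not be told apart. Since counts were unscaled, the values do not show which protein bound more.

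**Figure D5:**
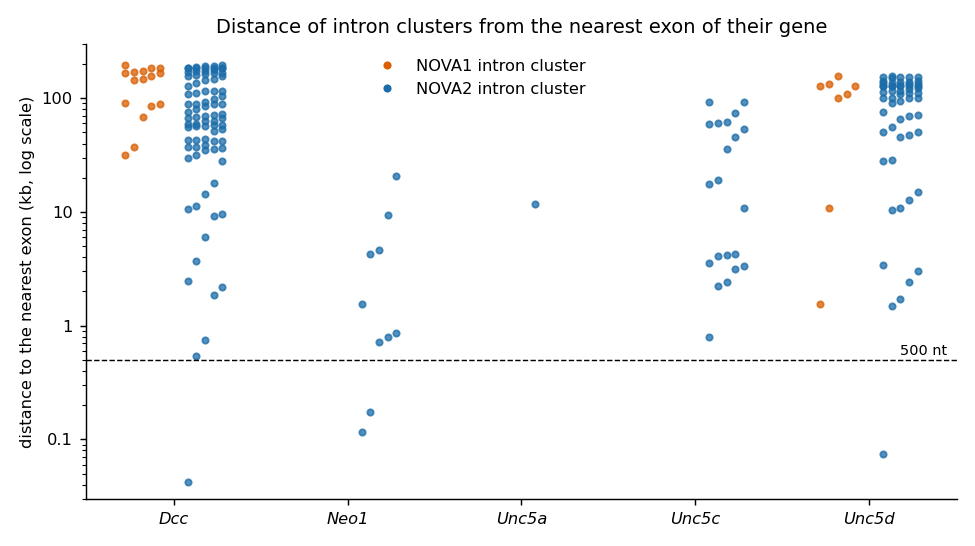
Distance of each intron cluster from the nearest exon of its gene (vertical axis, kb on a log scale) in 5 genes, NOVA1 in orange and NOVA2 in blue, with a dashed line at 500 nt. A total of 4 NOVA2 clusters and no NOVA1 cluster lie under the line, and most clusters of Dcc and Unc5d lie above 10 kb.

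Across the 6 genes together most clusters lay deep in introns, but the genes differed. Introns held 24 of 35 NOVA1 clusters (68.6%, 52.0 to 81.4) and 174 of 186 NOVA2 clusters (93.5%, 89.1 to 96.3), against 40.3% and 74.6% of all clusters. All 24 NOVA1 intron clusters lay in Dcc (16 of 17) and Unc5d (8 of 10), and Neo1, Unc5a and Unc5c had none. The intronic share of NOVA2 clusters was 100% in Dcc, 95% in Unc5d, 91.3% in Unc5c, 62.5% in Neo1 and 50% in Unc5a. Among the 11 NOVA1 clusters of the 6 genes with at least 20 tags the share in introns was 45.5%. Within 500 nt of an exon lay 0 of 24 NOVA1 intron clusters, which allows a share of up to 13.8%, and 4 of 174 NOVA2 intron clusters (2.30%, 0.898 to 5.76), against 12.7% and 10.4% of all intron clusters. The 4 were those beside Dcc exon 17, Neo1 exons 5 and 8 and Unc5d exon 16. More than 10 kb from an exon lay 23 of 24 and 140 of 174 (80.5%), against 52.2% and 49.4% over all transcripts. The median distance was 130.5 kb for NOVA1 and 67.1 kb for NOVA2, against 11.3 and 9.71 kb. Intron length bounds such distances, and introns 1 of Dcc and Unc5d alone held 110 of the 174 NOVA2 intron clusters.

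The motif was found in nearly all clusters, members or not. At least 1 YCAY was present in 35 of 35 NOVA1 and 185 of 186 NOVA2 clusters of the 6 genes, against 98.1% and 99.3% of all clusters and 77.1% and 82.8% of windows of the same length 200 nt away from the member clusters. The exception was a NOVA2 cluster of 13 tags in Neo1 intron 7. YCAY occurred 2.44 times as often in NOVA1 clusters (2.03 to 2.92) and 2.34 times as often in NOVA2 clusters (2.16 to 2.52) as in flanks 200 to 500 nt away, where the whole lists gave 2.02 and 2.29. The NOVA2 value was 2.35 in Dcc, 2.15 in Neo1, 2.21 in Unc5d and 2.63 in Unc5c. In Unc5a it was 5.32 (2.43 to 11.8), from 2 clusters. The intervals of the 5 genes overlapped. In NOVA2 intron clusters of the 6 genes that overlapped a NOVA1 cluster the fold was 2.59 (2.11 to 3.18, 24 clusters), and in those without overlap 2.29 (2.10 to 2.50, 150 clusters). Over all transcripts the folds were 2.60 (2.56 to 2.64) with overlap and 2.36 (2.34 to 2.38) without, close to those of the 6 genes. The intervals over all transcripts did not overlap, but they count copies of the motif as independent. In the 6 genes the clusters with overlap had a median of 61.5 tags and the others 15.

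Other genes with a like number of clusters, tags and length were found by the distance of these values on a log2 scale over both lists. Nearest to Dcc were Galntl6, with 17 NOVA1 and 89 NOVA2 clusters in 1134 kb, Erbb4, with 17 and 101, and Grm7, with 15 and 75. Nearest to Unc5d were Fgf13, Rims2 and Dok6, to Unc5c Fmn2, Slc4a10 and Tmem108, and to Neo1 Daam1, Myo5a and Jmjd1c. The likeness rests on 2 lists and says nothing of shared function.

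Some of the genes that act with these receptors were also bound. Of 12 netrins and other ligands, 4 held a NOVA1 cluster and 6 a NOVA2 cluster. Ntn1, which encodes netrin-1 and was named after its values were seen, held 2 NOVA2 clusters with 35 tags and no NOVA1 cluster. Of 9 other receptors and partners, 3 and 4 were bound, and of 29 cytoplasmic effectors 17 and 23, against 12.7% and 22.7% of all protein-coding genes. These shares were not adjusted for gene length or for the amount of RNA.

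The most NOVA2 tags in this list were found in Robo1, a receptor of Slit proteins that can silence the response to netrin, with 1663 tags in 32 clusters. Then came Dscam, a further netrin receptor, with 1120 tags in 27 clusters, and Flrt2, a ligand of UNC5 receptors, with 1030 tags in 21 clusters. Ptk2, which encodes focal adhesion kinase, a partner of DCC, had 893 tags in 24 clusters. Src, a kinase that phosphorylates DCC, had 837 tags in 2 clusters. More NOVA1 than NOVA2 clusters were found in Trim67, a ubiquitin ligase that binds DCC, with 9 against 4, and in Tubb3, a neuronal tubulin, with 3 against 2.

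The lists as a whole held 304703 NOVA1 and 1309270 NOVA2 tags, of which 0.203% and 0.376% lay in the 6 genes. Markers of cortical projection neurons held clusters in 4 of 6 genes for NOVA1 and 5 of 6 for NOVA2. Markers of astrocytes, microglia and endothelium held none in either list. Those of the oligodendrocyte lineage and of red blood cells held 1 NOVA1 cluster each, of 12 and 33 tags, and no NOVA2 cluster. A cluster list gives no expression level, and the part of these cells in the clusters of the receptor genes was not tested.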

How the data were processed

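For each NOVA protein, the authors had prepared 3 HITS-CLIP libraries from the cortex of wild-type embryos. Per the submitters' processing notes, reads had been aligned to mm9 with Novoalign (version not given in the sources used here). By the study's methods, PCR duplicates had been removed to give unique tags. Clusters present in more than 1 library of a protein and with at least 10 tags had been deposited, 1 list per protein, and the value in each list is a tag count, named peak height, pooled by the authors over the libraries. The cluster caller is not given in the sources used here. Because lists were pooled, the depth of single libraries could not be read from them. The study's text reports more unique tags in each NOVA2 library than in any NOVA1 library. A fixed threshold admits weaker sites for the more deeply sequenced protein, here NOVA2.

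Samples were grouped by the protein named in their titles. The members and lists were chosen with earlier results of these data known. GENCODE vM1 gene spans on NCBIM37 defined the members, and 0 clusters ended past a chromosome end. The reference transcript was the coding transcript with the longest coding sequence. Each cluster received the class that covered most of its nucleotides, with coding sequence ranked first, then UTRs, noncoding exons and introns, and last the 10 kb downstream of a gene. Exons of retained-intron transcripts were left out. An alternative exon lay in an intron of another coding transcript or differed from it in a splice site. YCAY was counted per start position. Shares carry Wilson 95% intervals, ratios and folds exact conditional binomial intervals, and medians order-statistic intervals. Clusters were named by rule: the 5 of highest tag count per list in Dcc and 3 in the other genes, exonic clusters, NOVA1 clusters without overlap, and those within 500 nt of an alternative exon. Intron clusters near other exons, and the one richest in YCAY, were added after values were seen. Python 3.11.15, NumPy 2.4.6, SciPy 1.17.1, pysam 0.24.0 and samtools 1.23.1 were used, and the functions were tested on simulated data. Draxin had no match by symbol and was not analysed here, nor were the RNA-seq data.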

Additional observations from a re-analysis of the deposited data

Results flagged for a closer look

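A NOVA2 cluster of 21 tags lay beyond the annotated 3′ end of Dcc and so outside the span from which the clusters of the gene were counted. It began 51 nt past the end, reached 0.24 kb past it, and overlapped the NOVA1 cluster of 36 tags that straddles the end. No other cluster of either list lay within 10 kb downstream of any of the 6 genes.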

How the results depend on the processing

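No paired analysis was possible because each list holds 1 pooled value per cluster, with no column for a library. No library could be left out in turn either. Of 51 recomputed summaries of the 6 genes together, 36 stayed within 1.5 times the count or within the 95% interval of the main value. Of 84 recomputed counts of clusters in single genes, 56 stayed within 1.5 times and 28 did not, all of them under higher tag thresholds or the reduced list. With at least 20 tags in both lists, the NOVA1 clusters of Unc5d fell from 10 to 1 and those of Dcc from 17 to 5. No YCAY fold or log2 ratio changed direction, and for counts and shares a change of direction was not defined. With at least 20 tags in both lists, 11 NOVA1 and 79 NOVA2 clusters were left in the 6 genes, 100% and 12.7% of them overlapped the other list, 45.5% of the NOVA1 clusters were intronic, the NOVA2 fold of YCAY was 2.61, and the median log2 ratio at shared positions was -0.58. With at least 30 tags, 4 and 51 clusters were left. With at least 25 tags for NOVA2 alone, 65 NOVA2 clusters were left, and the overlapping shares were 74.3% for NOVA1 and 40% for NOVA2. With NOVA2 reduced to the number of NOVA1 clusters, 47 NOVA2 clusters were left and the shares were 60% and 44.7%. Higher thresholds keep fewer clusters by construction, and the cause of the other shifts was not tested. Within 1000 nt of an exon lay 5.75% of the NOVA2 intron clusters, against 2.30% within 500 nt, just inside the upper limit of 5.76%. Other overlap rules, annotations, distances, flanks and merging of clusters within 50 nt moved no summary past these limits. Neither did the exclusion of Dcc, which was recomputed only for the YCAY folds and the median log2 ratio. Pooled counts and the threshold of 10 tags limit what can be said of sites with few tags.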
